A study of Mus musculus with 4 samples.

Results

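Ankrd1, Cyr61, Ctgf, Amotl2, Thbs1, Ajuba and Lats2 are 7 genes widely used as readouts of the transcriptional co-activator YAP, taken here by symbol from the 31053 genes counted in single-cell 3′ RNA libraries of mouse mammary epithelial cells. They were chosen by name as reported YAP targets, with their CPM by cell class and their treatment differences in these libraries already known, so these values are given as a description where the choice could have used them. All 7 had counts. The mice were FVB animals with both Tfap2c alleles floxed and with Krt5-CreERT2, and this holds for every group, controls included. From week 4, 2 mice received 4-hydroxytamoxifen (4OHT), which activates CreERT2, and 2 mice received corn oil as vehicle, with sampling at 9 weeks of age. The labels give the injections as 5 days in one place and as 1 week in another. Cre is driven by the Krt5 promoter, so recombination is directed to cells that use that promoter, mainly basal cells, and each mouse gave 1 library. The study asked what loss of Tfap2c, the gene of the transcription factor AP-2γ, does to mammary stem cells.

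YAP and its relative TAZ (gene Wwtr1) are held in the cytoplasm and degraded when the Hippo kinases are active. When that brake is released, on a stiff or stretched substrate for instance, they enter the nucleus and bind TEAD proteins, which contact DNA at GGAATG-like motifs. Cyr61 and Ctgf encode secreted matricellular proteins of the CCN family, and Thbs1 encodes thrombospondin-1, another matricellular protein. Ankrd1 encodes an ankyrin-repeat protein of the muscle sarcomere and nucleus. Amotl2, Ajuba and Lats2 encode proteins of the pathway itself: a YAP-binding angiomotin, a LIM-domain inhibitor of the LATS kinases, and a kinase that phosphorylates YAP. In the mammary gland, basal cells are contractile and lie on the basement membrane, while luminal cells line the duct.

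The start-site sequences are shown because TEAD contacts can be looked for in them. RefSeq (GRCm38.p6) gave promoter entries for 5 of the 7 genes, with 6 start sites. Ctgf and Thbs1 had no entry and were not searched. GGAATG was searched on both strands in the 250 bases upstream of each. It was present at 4 of the 6 start sites, those of Ankrd1, Cyr61, Amotl2 and Ajuba, against 12.6% of 32851 start sites in the whole table. The start sites of Lats2 held no match. The AP-1 motif TGANTCA (6.75% of all start sites) and the CArG box of serum response factor (1.47%) were found at none of the 6. The matches are printed 5′ to 3′ on the gene's own strand, with the 6 matched bases in capitals. CATTCC is the same motif read on the other strand. Distances are from the RefSeq start sites. The gene spans given further on are GENCODE's, which reach farther upstream for Ankrd1 and Amotl2, so the windows of these genes lie inside the spans printed for them.
Ankrd1, chr19:36120039-36120064, minus strand, 210 to 205 bases before the start: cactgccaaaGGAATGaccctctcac
Ankrd1, chr19:36119952-36119977, minus strand, 123 to 118 bases before the start: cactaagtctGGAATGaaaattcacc
Cyr61, chr3:145650073-145650098, minus strand, 103 to 98 bases before the start: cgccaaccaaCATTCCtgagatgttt
Amotl2, chr9:102717729-102717754, plus strand, 65 to 60 bases before the start: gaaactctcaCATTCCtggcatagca
Ajuba, chr14:54577832-54577857, minus strand, 186 to 181 bases before the start: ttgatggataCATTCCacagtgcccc
Ajuba, chr14:54577810-54577835, minus strand, 164 to 159 bases before the start: cccctccgcgCATTCCaactgtaaac

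The 250 bases upstream of the Cyr61 start are given whole, because Cyr61 is the gene whose luminal level the results below turn on. They lie at chr3:145649986-145650235 on the minus strand, with the match in capitals.
Cyr61: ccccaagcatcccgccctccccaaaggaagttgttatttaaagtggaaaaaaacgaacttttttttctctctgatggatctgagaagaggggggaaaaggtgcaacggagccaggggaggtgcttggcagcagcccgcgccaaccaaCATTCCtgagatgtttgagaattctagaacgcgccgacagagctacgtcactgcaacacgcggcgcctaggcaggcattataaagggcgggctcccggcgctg
A match is a description of these letters and not a measured binding site.

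The libraries held 18223 cell barcodes, and library totals ranged from 17351950 to 22017878 unique molecular identifiers (UMIs). Cells with at least 1000 UMIs numbered 17832 and were sorted by keratin counts into 7028 basal, 5629 luminal progenitor and 1168 hormone-sensing luminal cells. Summed basal markers stood between 12421 and 18205 CPM (UMIs of a gene scaled to a common total per sum) in basal cells and under 389 CPM in the luminal classes. Of these 8 markers, 4 (Krt5, Krt14, Krt17 and Acta2) also set the sorting, so this contrast follows in part from the rule. Endothelial-like cells numbered 6, 75, 41 and 139 and fibroblast-like cells 4, 92, 37 and 19, in the order used from here on: corn oil replicates 1 and 2, then 4OHT replicates 1 and 2. Cells with both keratin sets made up 12.1%, 8.36%, 20.02% and 17.5%, so their share was higher in the 4OHT libraries. Median UMIs per kept cell were 5328, 3663, 4312 and 3092.5, higher in both libraries numbered 1 than in both numbered 2. No pair of libraries agreed within sampling noise, and pairs shared 18 to 36 barcodes. Libraries of the same number were nearest to each other in basal cells. Their chi-square per degree of freedom was 15.2 for number 1 and 13.0 for number 2, against 31.6 to 45.5 for the other pairs.

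The targeted gene was examined first. Tfap2c in basal cells stood at 389, 285, 285 and 325 CPM, with overlapping groups and a log2 difference of −0.08 with a standard error (SE) of 0.25 (edgeR quasi-likelihood test, adjusted p = 0.999). The labels were thus not separated by this gene, and 3′ counts do not measure the exon deletion. A direction of treatment is therefore one between labels, written as 4OHT-labelled against corn oil-labelled. The p-values measure the spread between these mice. In the fits of 4OHT against corn oil that spread includes a split by replicate number, given below, which the main fit did not model.

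Levels by cell class come first, as CPM of summed UMIs. The classes were cut from keratin counts of the same cells, so these levels are a description without a test. Among the secreted proteins, Cyr61 was higher in luminal progenitors than in basal cells and Ctgf higher in basal cells, and both were lowest in hormone-sensing cells. Cyr61 (ENSMUSG00000028195, chromosome 3 from 145646976 to 145649981, minus strand, GRCm38) was highest of these 3 classes in luminal progenitors, at 1874, 788, 2710 and 1984 CPM. Basal cells had 377, 636, 535 and 606 CPM, below every progenitor value, and hormone-sensing cells had 78.6, 98.8, 143 and 168 CPM, below every basal value. The basal to progenitor log2 ratio was −1.67 ± 0.95 (SD, n = 4), with basal at 0.20 to 0.81 of the progenitor level within a library. Corn oil replicate 2 gave the ratio nearest to equality, with the lowest progenitor and the highest basal value. In that library 1 basal cell held 568 Cyr61 UMIs, and without it the basal level was 550 CPM. Outside the epithelium, endothelial-like cells had 655, 906, 1310 and 1123 CPM of Cyr61, and fibroblast-like cells had 176, 4691, 296 and 322 CPM from 4, 1620, 58 and 23 UMIs. In corn oil replicate 2 both were above the progenitors.

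Ctgf (ENSMUSG00000019997, chromosome 10 from 24595442 to 24598683, plus strand) was highest in basal cells, at 1688, 501, 964 and 538 CPM. Luminal progenitors had 308, 108, 502 and 98.2 CPM, and the highest of these overlapped the lowest basal value, although basal cells were above progenitors by 1.92 to 5.48 times within each library. In hormone-sensing cells Ctgf fell to 8.24 to 14.2 CPM, 59.4 to 129 times below the basal cells of the same library. Both libraries numbered 1 were above both numbered 2 in each of the 3 classes.

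Thbs1 (ENSMUSG00000040152, chromosome 2 from 118111876 to 118127133, plus strand) was a basal gene too, at 194, 249, 192 and 265 CPM. Progenitors had 46.5, 46.9, 64.3 and 26.4 CPM and hormone-sensing cells 1.54 to 9.41 CPM, so the 3 classes did not overlap. The antisense gene Gm29233, which overlaps Thbs1, had 0 UMIs.

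Ankrd1 (ENSMUSG00000024803, chromosome 19 from 36111961 to 36120099, minus strand) was found mainly in basal cells. They had 20.4, 14.4, 56.1 and 59.3 CPM, from 165, 94, 333 and 391 UMIs. Progenitors had 2.61, 11.7, 13.6 and 9.02 CPM, below every basal value. The progenitor value of corn oil replicate 2 came largely from 1 cell, which held 54 of its 71 UMIs. Hormone-sensing cells held 0, 1, 0 and 2 UMIs, and none of the endothelial-like or fibroblast-like cells held any.

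Among the genes of the pathway itself, Amotl2 (ENSMUSG00000032531, chromosome 9 from 102716672 to 102733418, plus strand) shared the progenitor preference of Cyr61. It stood at 37.2, 37.2, 45.7 and 34.6 CPM in progenitors against 18.3, 10.9, 19.7 and 8.50 CPM in basal cells, while hormone-sensing cells, at 13.0 to 22.5 CPM, overlapped the basal range. Ajuba (ENSMUSG00000022178, chromosome 14 from 54567472 to 54577558, minus strand) was higher in basal cells within every library, by 1.34 to 3.46 times over progenitors. Its basal values were 29.5, 9.94, 28.5 and 11.8 CPM, its progenitor values 6.28 to 13.3 CPM and its hormone-sensing values 1.76 to 7.08 CPM. Lats2 (ENSMUSG00000021959, chromosome 14 from 57689662 to 57758388, minus strand) showed no order of classes: 9.87 to 20.1 CPM in basal cells, 9.63 to 19.9 in progenitors and 9.45 to 17.0 in hormone-sensing cells. Gm49361, which overlaps Lats2 on the same strand, had 0 UMIs.

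**Figure D1:**
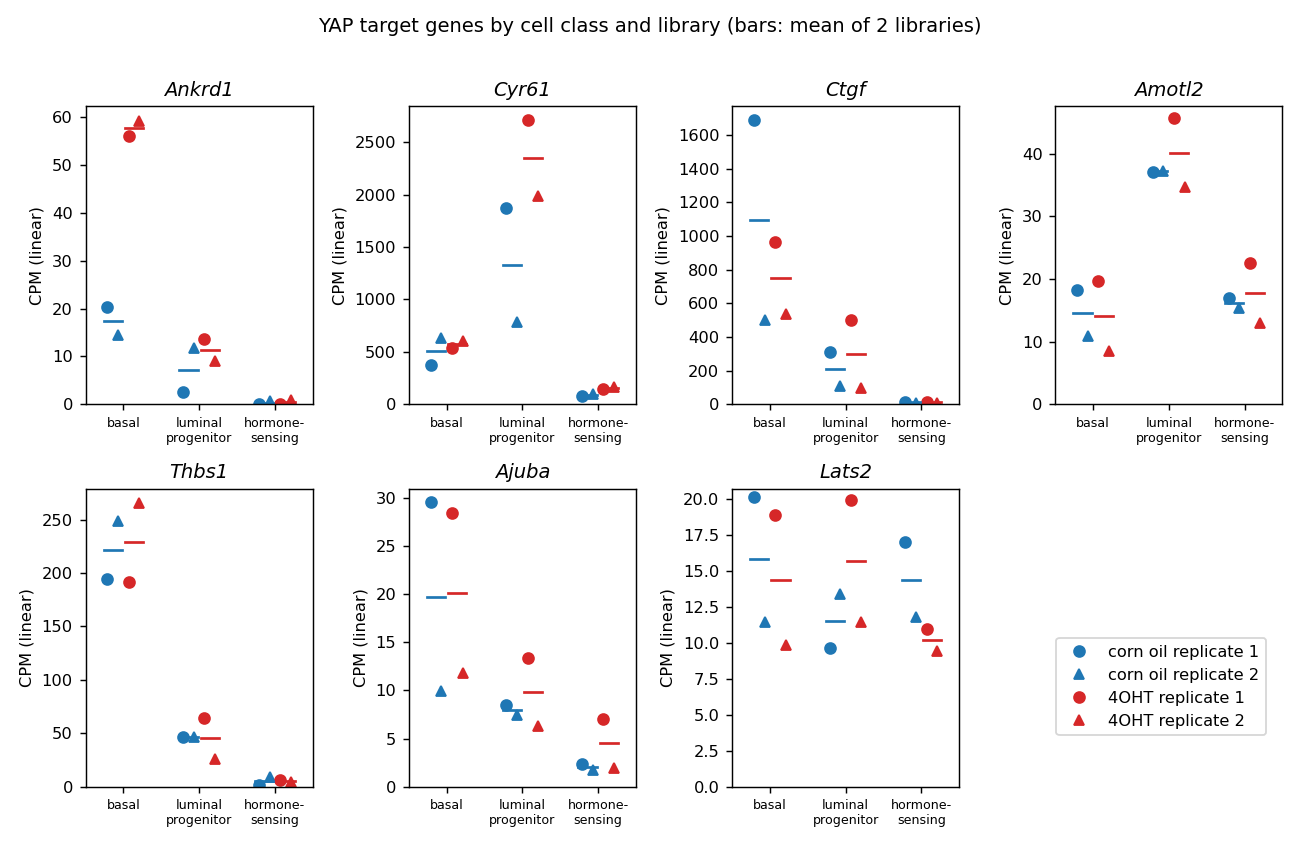
Level of each of the 7 genes (CPM, linear axis) in basal, luminal progenitor and hormone-sensing luminal cells, with 1 point per library and a bar at the mean of the 2 libraries of a treatment. Cyr61 and Amotl2 are highest in progenitors, Ankrd1 and Thbs1 are highest in basal cells without overlap, and Ankrd1 is the basal gene whose 4OHT-labelled points (56.1 and 59.3) lie above both corn oil-labelled points (20.4 and 14.4).

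Counted over the 7 genes, 2 were higher in all 4 basal sums than in all 4 progenitor sums, against 30.6% of 8165 genes, and 2 were higher in progenitors without overlap, against 14% of all. Basal cells exceeded hormone-sensing cells without overlap for 5 of 7 (28% of all genes) and progenitors did so for 5 of 7 (15.3%). Nothing is read from these counts, since the genes were chosen with class results known.

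The co-activators and their DNA-binding partners also differed by class. Yap1 was at 59.0 to 82.7 CPM in basal cells, 25.6 to 43.0 in progenitors and 21.3 to 57.0 in hormone-sensing cells. Wwtr1, which encodes TAZ, was at 162, 161, 205 and 211 CPM in basal cells and at 214 to 280 CPM in progenitors, but at 32.7 to 50.9 CPM in hormone-sensing cells. Tead1 and Tead2 ran in opposite order. Tead1 went from 180 to 235 CPM in basal cells through 76.4 to 144 in progenitors to 22.4 to 32.4 in hormone-sensing cells. Tead2 went from 12.9 to 19.1 CPM in basal cells through 37.3 to 62.3 in progenitors to 133 to 152 in hormone-sensing cells. Tead3 stayed under 18 CPM and Tead4 under 6.5 CPM in these classes, and Vgll1, a TEAD cofactor, had 0 UMIs in all 4 libraries. Hormone-sensing cells, where Ankrd1, Cyr61, Ctgf and Thbs1 were lowest, had the lowest Wwtr1 and Tead1 and the highest Tead2 of these classes. Their Yap1 overlapped that of progenitors, their Amotl2 overlapped the basal range, and Lats2 showed no order of classes. Cyr61 was highest in progenitors, where Yap1 and Tead1 were below the basal values. A link between these levels and the 7 genes was not tested.

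**Figure D2:**
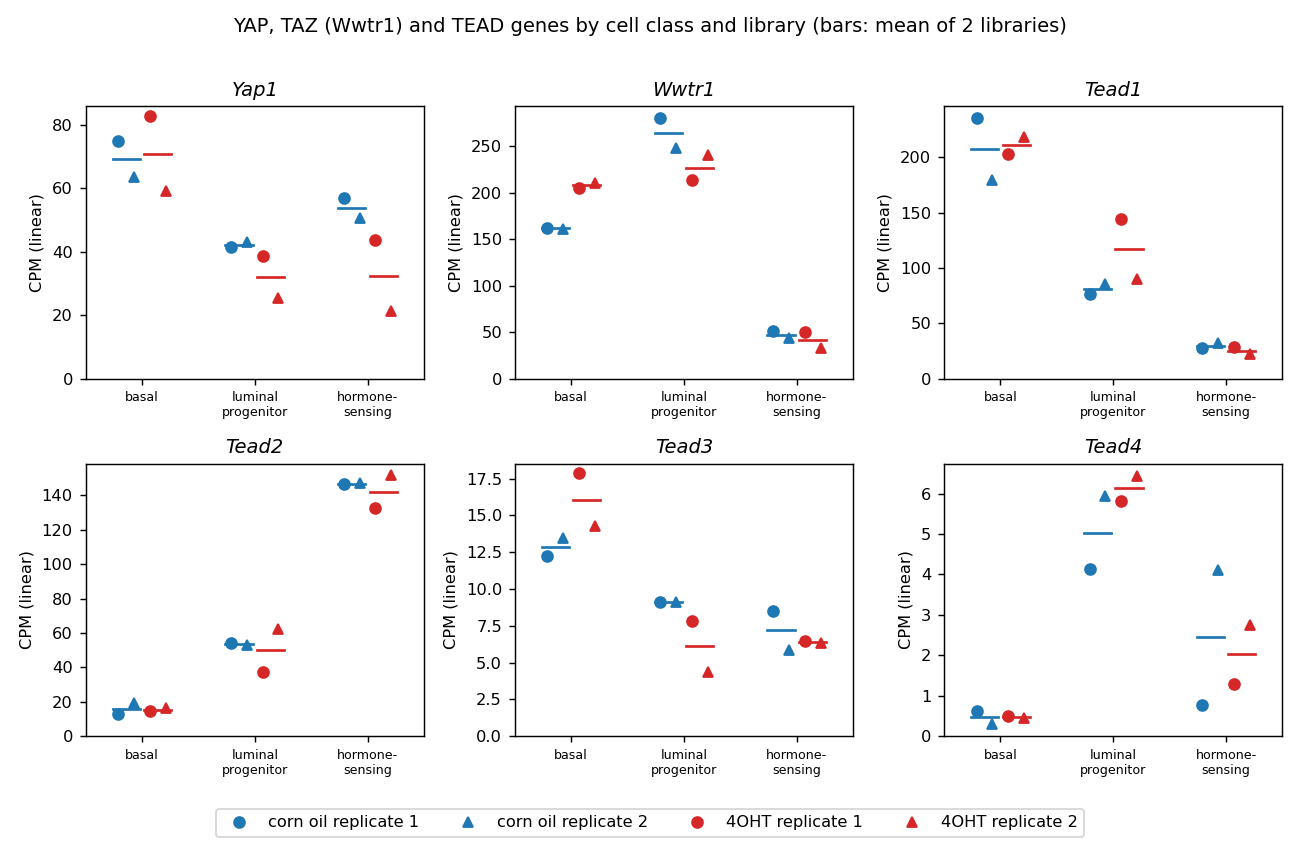
Level of Yap1, Wwtr1 and the 4 Tead genes (CPM, linear axes with separate scales) by cell class, 1 point per library and a bar at the mean of 2. Tead1 steps down from basal to hormone-sensing cells (180 to 235 against 22.4 to 32.4 CPM) while Tead2 steps up (12.9 to 19.1 against 133 to 152 CPM).

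How many cells carried each transcript was measured after thinning every cell to 2000 UMIs. Shallower cells were left out: 217 basal, 76 progenitor and 4 hormone-sensing cells with the corn oil label, and 490, 278 and 15 with the 4OHT label. Ctgf was seen in 50.8%, 33.4%, 42.7% and 32.1% of basal cells and in 17.6%, 8.83%, 22.1% and 8.70% of progenitors. In hormone-sensing cells it was seen in 0.920% to 3.97%, from median depths of 4745.5 to 8258 UMIs before thinning. The part of free RNA in these shares was not estimated. Cyr61 was seen in 53.1%, 38.3%, 57.8% and 61.4% of progenitors, 28.0% to 35.5% of basal cells and 5.96% to 15.3% of hormone-sensing cells. Thbs1 was seen in 20% to 26.9% of basal cells and 0.662% to 1.15% of hormone-sensing cells.

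Ankrd1 was a rare transcript even in its own class. A UMI was found in 1.98% of basal cells of corn oil replicate 1 (exact Clopper-Pearson 95% interval 1.33% to 2.84%) and in 1.43% of replicate 2 (0.927% to 2.10%). The 4OHT-labelled libraries had 4.05% (3.05% to 5.26%) and 3.39% (2.603% to 4.33%). The intervals of corn oil replicate 1 and 4OHT replicate 2 overlapped, and those of the other 3 pairs of unlike label did not. Among hormone-sensing cells of corn oil replicate 1, 0 of 151 cells had a UMI, which allows a share of up to 1.99% (3 counts of the total). Without thinning, 1.71% to 6.76% of basal cells carried Ankrd1. These intervals cover counting error only and not the spread between mice, so whether they overlap is no test of treatment.

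**Figure D3:**
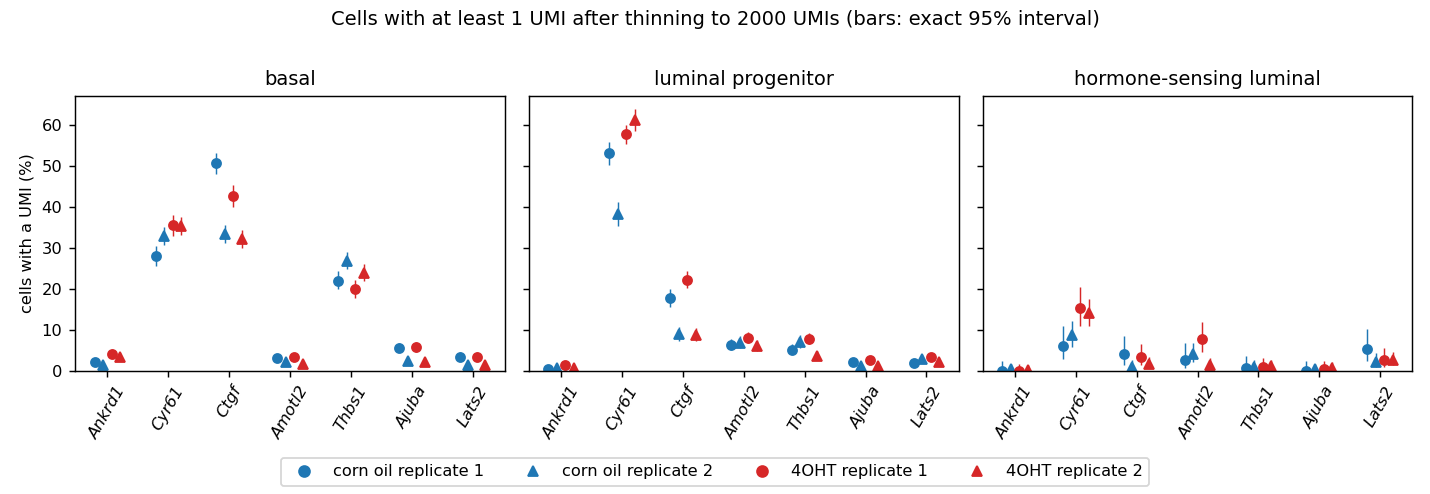
Percent of cells with at least 1 UMI of each gene after thinning to 2000 UMIs, in 3 cell classes, 1 point per library with its exact 95% interval. Ctgf is seen most often in basal cells and Cyr61 most often in luminal progenitors, and Ankrd1 stays at or under 4.05% everywhere.

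The transcripts were also unevenly spread among the basal cells. Basal cells with 5 or more Ankrd1 UMIs numbered 9, 6, 21 and 16 and held 50.3%, 62.8%, 65.5% and 68.3% of its basal UMIs. For Ctgf such cells numbered 509, 229, 300 and 233 and held 68.0% to 94.3%. No basal cell reached 5 UMIs of Ajuba or Lats2.

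Within basal cells the secreted members were found together, and Cyr61 and Ctgf were also found with Ankrd1 and Amotl2. Ctgf was detected in 69.2%, 49.4%, 63.2% and 49.4% of thinned basal cells with a Cyr61 UMI, and in 43.6%, 25.5%, 31.4% and 22.6% of those without one. Cyr61 was detected in 45.1% to 52.3% of cells with Thbs1 against 22.3% to 31.3% without. Among the 25 to 61 cells per library with Ankrd1, Ctgf was detected in 47.5% to 89.7%. That was above the 31.5% to 50.0% of the other cells in each of the 4 libraries. With Ankrd1, Cyr61 was at 44.8% to 72.0% against 27.6% to 34.8% without. With Amotl2, in 29 to 45 cells per library, Cyr61 was at 51.1% to 65.7% against 27.2% to 35.0% without. Ctgf was at 44.8% to 73.3% with Amotl2 against 31.9% to 50.0% without. All of these were higher in 4 of 4 libraries. With Ajuba, Ctgf was detected in 43.2% to 58.0% of cells against 31.8% to 50.3% without, higher in 4 of 4 libraries. Cyr61 was also higher in 4 of 4 libraries, at 28.4% to 47.3% against 28.0% to 35.2%. In corn oil replicate 1 the Cyr61 shares were nearly equal, at 28.4% of 81 cells against 28.0% without. The mean correlation of Ajuba and Cyr61 across basal cells was 0.013 (−0.048 to 0.043 over libraries). With Lats2, in 24 to 50 cells per library, Ctgf and Cyr61 were each more frequent in 3 of 4 libraries, Cyr61 at 28.0% to 47.7%. Thbs1 was more frequent with Ankrd1, Amotl2 and Ajuba in 3 of 4 libraries each, and with Lats2 in 2 of 4. Co-detection with genes outside the 7 was not computed. Over all 21 pairs of the 7 genes, the mean correlation across cells was highest for Cyr61 and Ctgf (Pearson r = 0.337, 0.323 to 0.368 over libraries). For 18 pairs it was under 0.15. Cells of a library share its preparation, and sparse counts hold these correlations down.

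**Figure D4:**
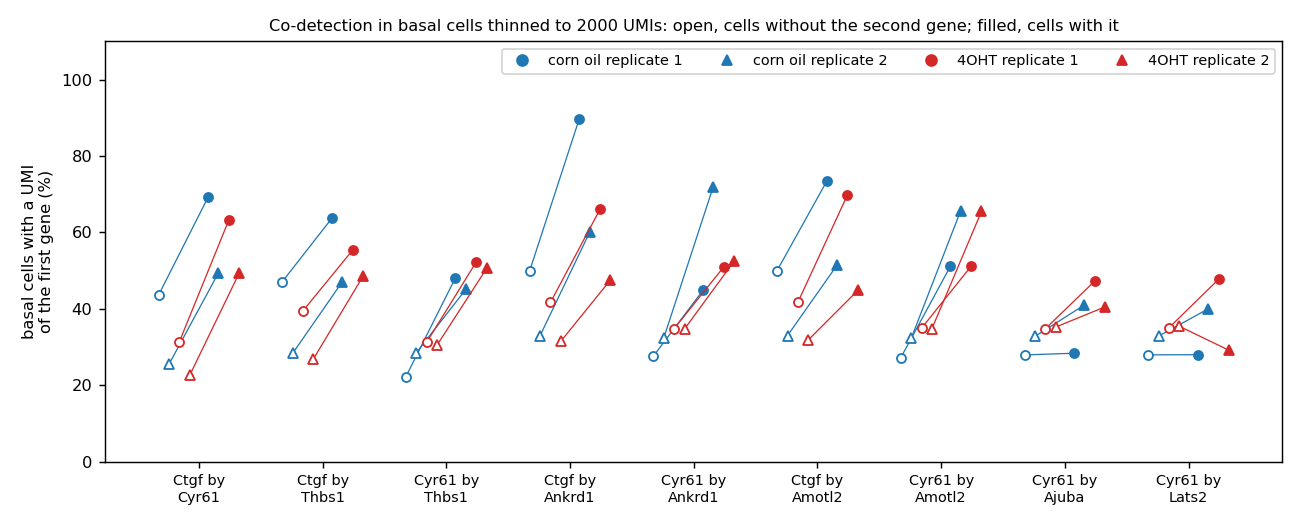
Percent of thinned basal cells with a UMI of the first gene, among cells without (open) and with (filled) a UMI of the second gene, 1 line per library. The lines rise in all 4 libraries for pairs of Ctgf, Cyr61 and Thbs1, as from 43.6% to 69.2% for Ctgf by Cyr61 in corn oil replicate 1. They also rise in all 4 libraries for Ctgf and Cyr61 by Ankrd1 and by Amotl2, and in 3 of 4 libraries for Cyr61 by Lats2.

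Genes with like patterns were named by correlation of log2(CPM + 1) over the 12 sums of 4 libraries and 3 classes. The nearest was Cald1 for Thbs1 (r = 0.981), Mapre1 for Ctgf (0.992), Psmd4 for Cyr61 (0.963) and Slc35b1 for Ankrd1 (0.961). For Amotl2 it was Me1 (0.962), for Ajuba Mef2a (0.978) and for Lats2 Swt1 (0.881). With 12 points that share 4 libraries and with 4141 genes searched, high values come easily. Across basal cells, the nearest genes to Cyr61 were Hspa1a and Hspb1, which encode heat-shock proteins (mean r = 0.395 each, over 7028 cells in 4 libraries), ahead of Ctgf. Hspb1 (0.340), Gadd45g (0.2997) and Nr4a1 (0.293), stress or immediate-early genes, were nearest to Thbs1. Ankrd1 was nearest to Myl9 (0.174), Acta2 (0.146) and Tpm2 (0.145), genes of the contractile apparatus, at weak correlations that are no finding in sparse counts.

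The question put by the treatment is whether these genes differ between the 4OHT-labelled and corn oil-labelled libraries. In basal cells Ankrd1 stood apart from the other 6. It averaged 57.7 ± 2.31 CPM in the 4OHT-labelled and 17.4 ± 4.25 CPM in the corn oil-labelled libraries (SD, n = 2 each), with no overlap. The fitted log2 difference was 1.79 with an SE of 0.28, and between libraries of the same number it was 1.42 and 1.97. Its unadjusted p of 0.00046 ranked 5 of 10788 genes, and its adjusted p was 0.604 (edgeR quasi-likelihood test, Benjamini-Hochberg), so it did not pass. Ankrd1 was already known from an earlier fit of these libraries to rank high, so its place is not independent evidence.

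The call for Ankrd1 turned on the method. With the replicate number as a block it passed the threshold, as set out in the closing section. Its adjusted p was 0.0011 with the DESeq2 Wald test and 0.000886 with edgeR without a filter on low counts, and over all alternatives it ran from 0.000886 to 0.828. Leaving out corn oil replicate 1 gave an adjusted p of 0.0075, and leaving out 4OHT replicate 1 gave 0.0026. Few cells held these counts. With each cell counted for at most 3 UMIs, an alternative chosen after the data were seen, basal Ankrd1 was 13.1, 8.11, 29.6 and 25.3 CPM, and the difference of the group means fell from 1.69 to 1.33 on the log2 scale. With cells of both keratin sets added to the basal class, also chosen after the data were seen, it was 1.42. Summed pericyte markers in basal cells were at 5.39 and 5.01 CPM in the 4OHT-labelled against 4.20 and 2.14 CPM in the corn oil-labelled libraries. These sums came from few UMIs, 32 and 33 against 34 and 14. Abcc9 was at 0 in all 4 libraries, Kcnj8 in both corn oil-labelled libraries and Rgs5 in 4OHT replicate 2. The part of these sums in the Ankrd1 difference was not tested.

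The other 6 genes did not separate by treatment in basal cells. Their log2 differences lay between −0.50 for Ctgf and 0.21 for Cyr61, with SEs of 0.30 to 0.54 and an adjusted p of 0.999 each (edgeR). In the main edgeR fit, which had no replicate block, no gene of 10788 passed the threshold (percent called 0) while DESeq2 called 36. With the replicate number as a block edgeR did call genes in each cell class, as given in the closing section. In the main edgeR fit 465 genes (4.31%) had an unadjusted p under 0.05, as did 1 of the 7, Ankrd1. Upward such genes made up 2.13%. Groups did not overlap for 1 of 7 upward, against 13% of all genes, and for 0 of 7 downward, against 17.6%.

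The 6 split instead by replicate number. Ctgf, Amotl2, Ajuba and Lats2 were higher in both basal sums numbered 1 than in both numbered 2, a pattern seen for 37.3% of all genes tested. Cyr61 and Thbs1 were lower in both sums numbered 1, as were 16.1% of genes. For Ajuba the libraries numbered 1 gave 29.5 and 28.5 CPM and those numbered 2 gave 9.94 and 11.8 CPM, whatever the treatment label. Median depth moved with this split, at 5152.5 and 3850 UMIs per basal cell in the libraries numbered 1 and 3172 and 2827.5 in those numbered 2, and its part in the result was not tested. Summed endothelial markers in basal cells were also lower in the libraries numbered 1, at 12.7 and 8.93 against 46.0 and 55.6 CPM. Summed luminal progenitor markers there were at 126 and 151 against 191 and 226 CPM. The part of these sums in the split was not tested. Ankrd1 was the member outside the split by number in basal cells.

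In luminal progenitors Cyr61 had the largest difference. It averaged 2347 ± 514 CPM in the 4OHT-labelled and 1331 ± 767 CPM in the corn oil-labelled libraries (SD, n = 2 each), and the lowest 4OHT-labelled value, 1984, was above the highest corn oil-labelled value, 1874. The log2 difference was 0.89 with an SE of 0.41, and 0.53 and 1.33 within numbers. The p was 0.056 and the adjusted p 1.00 (edgeR), so it did not pass, and without corn oil replicate 1 the difference was 1.71 with an adjusted p of 0.0945, against 0.38 without corn oil replicate 2. Summed basal markers in the progenitor class also moved with treatment, from 256 to 263 CPM in the corn oil-labelled to 332 to 388 CPM in the 4OHT-labelled libraries, and their part in the result was not tested.

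All 7 members had a fitted difference above 0 in progenitors, from 0.03 for Thbs1 to 0.89 for Cyr61, where 47.6% of all 10120 genes were above 0, but this was not shared by the libraries. Between the libraries numbered 1 all 7 were higher with the 4OHT label, and between those numbered 2 only Cyr61 was. Thbs1 turned to −0.04 with library totals as the only scaling, which moved the median of all genes to −0.11. Progenitor Ankrd1 had an adjusted p of 0.0386 (edgeR, log2 difference 2.16) without corn oil replicate 2, the library in which 1 cell held most of its UMIs, against 0.78 and 1.00 with all libraries. No gene of 10120 passed in progenitors with edgeR (percent called 0) and 1 with DESeq2, and 166 genes (1.64%) had an unadjusted p under 0.05. In this class the groups did not overlap upward for 1 of 7 members against 7.33% of genes.

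Hormone-sensing cells gave the same gene at a lower level. Cyr61 was at 78.6 and 98.8 CPM in the corn oil-labelled and 143 and 168 CPM in the 4OHT-labelled libraries, without overlap. The log2 difference was 0.76 with an SE of 0.28, and within numbers 0.85 and 0.76. The adjusted p was 1.00 (edgeR), so it did not pass. It was the 1 of 5 tested members with an unadjusted p under 0.05, against 3.16% of all genes and 1.7% upward. Lats2 was lower without overlap, at 17.0 and 11.8 against 10.95 and 9.45 CPM (log2 difference −0.52, SE 0.40, adjusted p = 1.00, edgeR). These values came from 22 and 20 against 17 and 24 UMIs, so the gap from 11.8 to 10.95 was less than counting error. Non-overlap upward was found for 17% of genes and downward for 13.5%. Ankrd1 and Ajuba had too few counts to be tested here. Summed fibroblast markers in this class were 53.5 to 243 CPM in the corn oil-labelled and 238 to 1346 CPM in the 4OHT-labelled libraries, with overlap. In corn oil replicate 1 Dcn was the only one of the 6 markers detected. Their part in the Cyr61 difference was not tested. The only gene of 7589 past the threshold was Ctsr, a cathepsin-family gene with close copies (2, 6, 91 and 130 UMIs, log2 difference 4.29, adjusted p = 0.0383, edgeR, percent called 0.0132).

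With all cells summed, Ankrd1 (log2 difference 1.35, SE 0.20) and Cyr61 (0.60, SE 0.21) were the 2 members whose groups did not overlap, against 9.48% of genes upward, and both had an adjusted p of 1.00 (edgeR). No gene of 12972 passed with edgeR and 14 with DESeq2. Both members had an unadjusted p under 0.05, against 271 genes (2.09%) and 0.964% upward. By library number, 4 members were higher in both all-cell sums numbered 1, against 35.2% of genes. DESeq2 gave all-cell Ankrd1 an adjusted p of 0.023, within a range of 0.023 to 1.00 over the alternatives. Cells with both keratin sets and the rarer endothelial-like and fibroblast-like cells enter these sums in different shares.

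**Figure D5:**
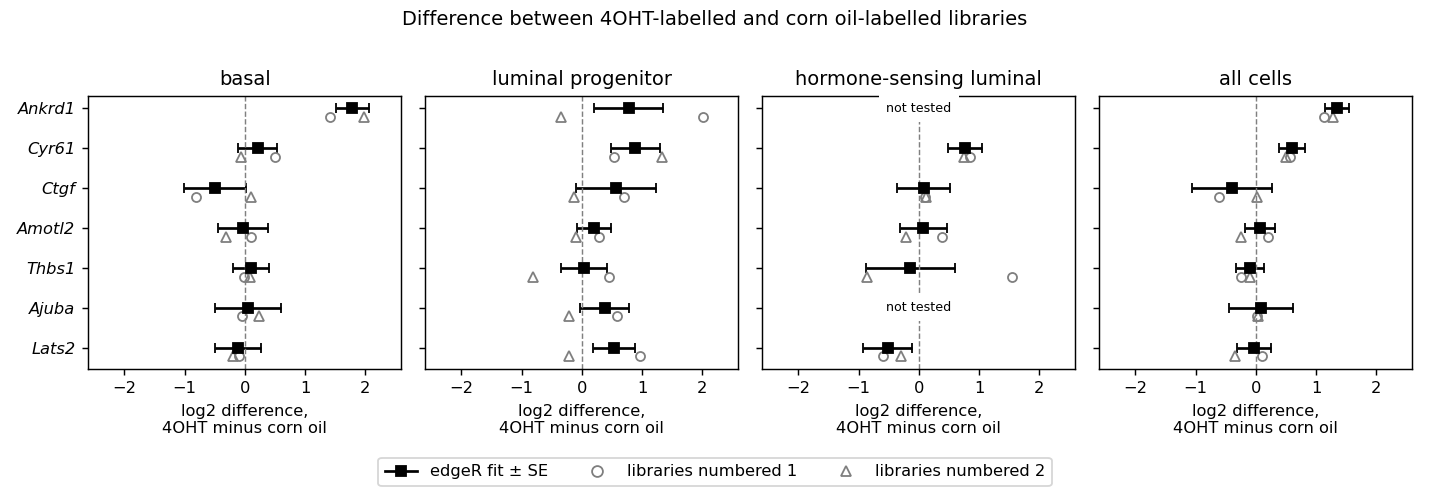
Log2 difference between 4OHT-labelled and corn oil-labelled libraries for each gene in 3 classes and in all cells: squares with bars are the edgeR fit with its SE, open symbols the difference between the libraries of 1 number. Basal Ankrd1 sits at 1.79 with both open symbols above 1, Cyr61 is above 0 in progenitors, hormone-sensing and all cells, and no square passes the adjusted threshold.

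Whether the difference depends on the class was tested directly. The interaction of treatment and class (basal minus progenitor) was 0.83 with an SE of 0.63 for Ankrd1, −0.78 with an SE of 0.55 for Cyr61 and −0.71 with an SE of 0.41 for Ctgf, each with an adjusted p of 1.00 (edgeR), and none of 11434 genes passed (percent called 0, 429 genes or 3.75% with an unadjusted p under 0.05, 1.73% upward, and 0 of the 7 members). These values rested on single libraries. Without corn oil replicate 1 the interaction was 1.89 (adjusted p = 0.024) for Ankrd1 and −1.88 (adjusted p = 0.000539) for Cyr61, and without corn oil replicate 2 both signs turned, to −0.58 and 0.32. Without 4OHT replicate 2 the interaction was −1.15 (adjusted p = 0.0146) for Cyr61 and −1.52 (adjusted p = 0.0012) for Ctgf, which was 0.096 without 4OHT replicate 1 (edgeR). No difference between the classes in the treatment effect is shown.

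Other genes around YAP were followed in basal cells as 6 lists, in none of which a gene passed the threshold (edgeR). The co-activator and TEAD list had 4 of 7 tested genes above 0. Wwtr1 was at 0.41 (SE 0.22), with 162 and 161 against 205 and 211 CPM and no overlap, Tead1 at 0.08 and Vgll4, a TEAD co-repressor, at −0.19. Of 19 tested Hippo components upstream of YAP, 5 were above 0 and the median was −0.20: Frmd6 was at 0.33, Ptpn14 at 0.23, Mob1a at −0.29 and Limd1 at −0.41. Of 17 other reported YAP targets 10 were above 0, with Tgfb2 at 0.62, the coagulation factor receptor gene F3 at 0.52, Tgfb1 at −0.24 and Crim1 at −0.95 (SE 0.26, adjusted p = 0.999, edgeR). All 5 tested genes of the CCN and matrix list reported here were above 0 (median 0.79), and each had a mean under 20 CPM. Of 10 contractile genes 6 were above 0, with Myl9 at 0.31, Cnn1 at 0.30, Actg2 at −0.18 and Vcl at −0.23.

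The immediate-early and heat-shock list, which holds genes that tissue dissociation induces, had 12 of 14 genes above 0 with a median of 0.48, and 4 had an unadjusted p under 0.05. Egr1 was at 1.24 (SE 0.32) and Fos at 1.22 (SE 0.33), while Hspa1a and Hspa1b were at −0.03. Over all 10788 genes 48.1% were above 0 and the median was −0.02. Summed over the list, basal cells held 5810 and 6868 CPM in the corn oil-labelled and 7950 and 8054 CPM in the 4OHT-labelled libraries, so the list moved with the same split as basal Ankrd1. In hormone-sensing cells it stood at 3693 and 2777 against 3969 and 4619 CPM, and in progenitors at 10129 and 5491 against 8588 and 9092 CPM, with overlap. Its part in the Ankrd1 and Cyr61 differences was not tested.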

How the data were processed

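The authors deposited UMI counts for each gene in each cell, not normalized, made with Cell Ranger 3.0.1 on an mm10 (GRCm38) reference from 3′ libraries, per the submitters' processing notes and design text. Strand and intron settings are not given in the sources used here. Cells with at least 1000 UMIs were kept, leaving out 391. With B the summed UMIs of Krt5, Krt14, Krt17 and Acta2 and L those of Krt8, Krt18 and Krt19, basal cells had B of at least 5 and over 3 times L, and luminal cells the reverse. Luminal cells were hormone-sensing with at least 3 UMIs of Ly6d, Fxyd2 and Gpx3 and more of these than of Wfdc18, Csn3 and Ltf, and progenitors otherwise. Other cells were called endothelial-like or fibroblast-like from at least 3 marker UMIs. Doublets were not removed beyond the gate, and an alternative left out the 5% of cells with most UMIs.

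Counts were summed per library and class, so the libraries are the replicates, and tested with edgeR 4.0.16 in R 4.3.3 (TMM, filterByExpr, quasi-likelihood, Benjamini-Hochberg, threshold 0.05). The interaction fit had library as a block. The procedure was tested on simulated data. Alternatives were RLE or total scaling, DESeq2 1.42.0, other filters, stricter gates, a replicate block and each library left out. Shares used cells thinned to 2000 UMIs, with exact 95% intervals. Intervals and the limit of 3 counts behind a count of 0 cover counting error only. Within-number differences, class log2 ratios and correlations over sums used log2 CPM with 1 added, and correlations across cells log-normalized UMIs. Gene positions are those of GENCODE M21.

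The 7 genes and the 6 lists (co-activators, upstream components, other targets, CCN and matrix, immediate-early, contractile) were chosen with earlier results of these data known. One gene of the CCN and matrix list is not reported here. In each list the text names, in basal cells, the 2 largest rises and 2 largest falls over 20 CPM, or genes past the threshold. Marker sums are given beside some of the results, and not for every class and marker list. Endothelial, leukocyte and pericyte sums in basal cells ran from 8.93 to 55.6, 12.5 to 25.4 and 2.14 to 5.39 CPM.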

Additional observations from a re-analysis of the deposited data

Results flagged for a closer look

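Thbs1 was also counted in the cells left out for having under 1000 UMIs. There it stood at 254 and 345 CPM in the corn oil-labelled libraries (7 and 23 UMIs) and at 347.5 and 475 CPM in the 4OHT-labelled libraries (35 and 44 UMIs), so the lowest 4OHT-labelled value was above the highest corn oil-labelled one by less than counting error.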

How the results depend on the processing

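Of the 7 genes, basal Ankrd1 kept its direction under every alternative run, and leaving out 1 library gave 1.63 to 2.004. The count of genes past the threshold depended on the method. DESeq2 called 36 genes in basal cells, 1 in progenitors and 14 in all cells, against 0 with edgeR. Without the low-count filter edgeR called 93 in basal, 39 in progenitor and 59 in hormone-sensing cells, and with a mean of at least 20 CPM 0 in hormone-sensing cells, against 0, 0 and 1. Leaving out 1 library gave 17 to 127 in basal cells, 31 to 64 in progenitors, 4 to 80 in hormone-sensing cells and 0 to 63 for the interaction. The cause was not tested. A lone sample is there assumed to vary like the other group.

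With the replicate number as a block, 167 basal, 9 progenitor and 3 hormone-sensing genes were called. Ankrd1 had an adjusted p of 0.0020, Egr1, Fos and Crim1 passed, and progenitor Thbs1 was −0.071. Same-numbered libraries deviated together (correlation 0.73 in basal, 0.47 in progenitor, 0.24 in hormone-sensing and 0.66 in all cells), but with 2 pairs and no label for it the number was not taken as a pairing.

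Small values turned sign under other settings. With total scaling progenitor Thbs1 was −0.040. With the stricter gate basal Lats2 was 0.071, Tead1 −0.21, Hspa1b 0.11, Hspa1a 0.12, Actg2 0.098 and Ptpn14 −0.0032. Without the 5% of cells with most UMIs basal Amotl2 was 0.0084, basal Hspa1a 0.044, progenitor Thbs1 −0.10, hormone-sensing Ctgf −0.093 and hormone-sensing Amotl2 −0.12. Over 20 CPM progenitor Thbs1 was −0.0025. The cause was not tested.

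Leaving out 1 library at a time turned these signs, given as lowest to highest. In basal cells the ranges were Actg2 −0.76 to 0.85, Ajuba −0.57 to 0.97, Amotl2 −0.62 to 0.40, Cnn1 −0.13 to 0.64, Ctgf −1.07 to 0.55, Cyr61 −0.15 to 0.73, Hspa1a −0.30 to 0.22, Hspa1b −0.54 to 0.37, Lats2 −0.52 to 0.29, Myl9 −0.19 to 1.12, Ptpn14 −0.064 to 0.48, Tead1 −0.066 to 0.23, Tfap2c −0.28 to 0.10, Tgfb1 −0.53 to 0.025, Thbs1 −0.26 to 0.40, Vcl −0.54 to 0.040. In progenitors the ranges were Ajuba −0.19 to 0.77, Ctgf −0.94 to 1.57, Thbs1 −0.66 to 0.50. In hormone-sensing cells the ranges were Amotl2 −0.33 to 0.41, Ctgf −0.23 to 0.37, Thbs1 −0.88 to 1.85. In all cells the ranges were Ajuba −0.57 to 0.79, Amotl2 −0.22 to 0.31, Ctgf −1.06 to 0.78, Lats2 −0.38 to 0.24, Thbs1 −0.33 to 0.11. For the interaction the ranges were Ajuba −0.75 to 0.43, Amotl2 −0.66 to 0.047, Ankrd1 −0.58 to 1.89, Ctgf −1.52 to 0.096, Cyr61 −1.88 to 0.32, Thbs1 −0.78 to 1.07.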
